A study of Mus musculus with 8 samples.

Results

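Hemoglobin genes and the erythroid heme gene Alas2 were followed as 5 transcripts in mouse kidney: Hba-a1 and Hba-a2, which encode adult alpha globin, Hbb-bs and Hbb-bt, which encode adult beta globin, and Alas2, which encodes the erythroid form of the enzyme for the first step of heme synthesis. The members were taken by gene name, and each name matched 1 of the 54532 genes in the deposited table. RNA sequencing of polyadenylated transcripts compared 4 kidney libraries of mice given bisphenol A (BPA), a plastics monomer that binds estrogen receptors weakly, with 4 libraries of mice given vehicle. The library names give the animals as ICR, an outbred stock, and no strain, allele or other agent is named beside it. The sources used here give no dose, route, duration or age, do not name the vehicle, and do not say whether the kidneys were flushed of blood. Whether each library is a different animal is not stated, so the p-values describe the spread between these libraries, which may be technical.

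Hemoglobin carries oxygen in red blood cells as a tetramer of alpha and beta chains, each holding a heme group. Mammalian red cells lose their nucleus as they mature, and the youngest circulating ones, the reticulocytes, still hold a store of globin messenger RNA. The adult mouse kidney does not normally make red cells, but its interstitial cells secrete erythropoietin, the hormone that drives red cell production. Globin transcripts in a kidney that was not flushed of blood are therefore often read as a measure of the blood left in it, although they have also been described in some cells outside the erythroid lineage. In bulk tissue, fewer blood cells and less globin RNA per cell cannot be told apart.

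The copies of each globin are so alike that the sequences bear on how their levels can be read. The coding sequences of Hba-a1 and Hba-a2 in GENCODE M21 (GRCm38) are each 429 bases long and differ at 1 base, C381T, with the Hba-a1 base first and positions counted from 1 at the start codon. The coding sequences of Hbb-bs and Hbb-bt, 444 bases each, also differ at 1 base, C417T, with the Hbb-bs base first. Neither substitution changes the amino acid. The 30 coding bases around each difference follow, 5′ to 3′, with the differing base in capitals.
Hba-a1: catgcctctctggaCaaattccttgcctct
Hba-a2: catgcctctctggaTaaattccttgcctct
Hbb-bs: gtggctggagtggcCgctgccctggctcac
Hbb-bt: gtggctggagtggcTgctgccctggctcac

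For each gene 1 coding transcript was also aligned with that of its copy, coding sequence included and overhanging ends left out. Those of Hba-a1 and Hba-a2, 699 and 554 bases long, were 99.8% identical over 538 aligned bases. Those of Hbb-bs and Hbb-bt, 628 and 703 bases long, were 92.4% identical over 630. The alpha pair was thus closer where it aligned, but part of the Hba-a1 transcript had no aligned counterpart. Of all 100-base windows in the Hba-a2 transcript, 74.5% also occurred in a transcript of Hba-a1, and 56.5% of those in Hba-a1 occurred in Hba-a2. For the beta pair, 62.6% of the Hbb-bs windows occurred in Hbb-bt and 54.8% of the Hbb-bt windows in Hbb-bs. A read from such a window cannot be assigned by sequence, and the sources used here give neither the read length nor how reads that match several genes were counted. The splits between Hba-a1 and Hba-a2 and between Hbb-bs and Hbb-bt are therefore uncertain. The reference genome carries the beta genes of C57BL/6J, and other mouse strains carry a different pair, Hbb-b1 and Hbb-b2, which was not analysed here. Which beta genes the ICR mice carried was not tested.

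The promoters were also compared, since the members share an erythroid role. The RefSeq windows (GRCm38.p6) run from 250 bases before to 50 after the annotated start. Capitals mark 4 short motifs on either strand: GATAA, the core bound by GATA factors such as GATA1; CACCC, the core bound by KLF factors such as KLF1; CCAAT; and TATAA, the TATA box.
Hba-a1, chr11:32283422-32283721, plus strand: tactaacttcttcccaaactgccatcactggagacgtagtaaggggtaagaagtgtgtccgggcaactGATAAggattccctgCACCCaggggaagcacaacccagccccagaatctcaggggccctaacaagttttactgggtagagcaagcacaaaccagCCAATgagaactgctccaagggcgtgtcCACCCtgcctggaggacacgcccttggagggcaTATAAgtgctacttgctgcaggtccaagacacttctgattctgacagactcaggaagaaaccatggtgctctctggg
Hbb-bs, chr7:103827879-103828178, minus strand: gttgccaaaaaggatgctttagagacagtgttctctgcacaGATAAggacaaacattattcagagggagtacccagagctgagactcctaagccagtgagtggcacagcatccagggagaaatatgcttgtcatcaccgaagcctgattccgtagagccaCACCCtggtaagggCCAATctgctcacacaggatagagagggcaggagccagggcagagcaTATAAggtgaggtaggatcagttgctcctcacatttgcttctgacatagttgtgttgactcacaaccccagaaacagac
Hbb-bt, chr7:103813874-103814173, minus strand: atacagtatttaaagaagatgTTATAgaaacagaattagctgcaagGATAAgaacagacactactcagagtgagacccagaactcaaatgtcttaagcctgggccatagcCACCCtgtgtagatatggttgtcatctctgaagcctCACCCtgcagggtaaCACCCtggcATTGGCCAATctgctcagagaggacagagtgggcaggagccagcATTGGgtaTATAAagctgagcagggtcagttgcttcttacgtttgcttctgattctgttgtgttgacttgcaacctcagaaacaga
Alas2, chrX:150547167-150547466, plus strand: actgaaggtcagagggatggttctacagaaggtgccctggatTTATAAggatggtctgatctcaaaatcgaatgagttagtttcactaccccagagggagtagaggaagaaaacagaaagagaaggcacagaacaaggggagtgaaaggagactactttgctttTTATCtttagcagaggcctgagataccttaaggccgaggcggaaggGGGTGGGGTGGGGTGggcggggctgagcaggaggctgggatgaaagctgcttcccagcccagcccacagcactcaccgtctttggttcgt

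All 4 printed promoters held GATAA, at least 1 copy of CACCC and a TATAA match, and the Alas2 window had no match to CCAAT. The Hba-a2 window was identical to that of Hba-a1 over the 297 bases they share, so it is not printed, while the Hbb-bs and Hbb-bt windows were 74.1% identical. TATAA began between -27 and -29 from the start in Hba-a1, Hbb-bs and Hbb-bt, and at -207 in Alas2, where it overlaps TTATA, its form on the other strand. Among all 32851 RefSeq promoter windows, 25.4% held GATAA, 57.5% CACCC, 37.4% CCAAT and 24.9% TATAA on either strand. These matches describe letters in the windows, and binding was not measured.

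The 5 genes spanned a wide range of levels, in the same order in all 8 libraries: Hba-a1, Hbb-bs, Hbb-bt, Alas2 and Hba-a2. Levels are in FPKM, reads divided by gene length and by a size of the library, so they can be compared between genes. Hba-a1 (ENSMUSG00000069919, chromosome 11, 32283511 to 32284465) was the 90th gene of the table by mean level, at 372 FPKM over all libraries. Hbb-bs (ENSMUSG00000052305, chromosome 7, 103826534 to 103828096) was the 226th, at 182 FPKM. Hbb-bt (ENSMUSG00000073940, chromosome 7, 103812524 to 103813996) had a mean of 33.4 FPKM, and Alas2 (ENSMUSG00000025270, chromosome X, 150547375 to 150570638) one of 4.25 FPKM. Hba-a2 (ENSMUSG00000069917, chromosome 11, 32296489 to 32297298) had a mean of 0.660 FPKM. Within a library the ratio of Hba-a1 to Hbb-bs was 1.27 to 3.61, that of Hbb-bs to Hbb-bt 4.47 to 7.21 and that of Hbb-bt to Alas2 3.09 to 13.9. Across libraries the ranges of Hba-a1 and Hbb-bs overlapped, as did those of Alas2 and Hba-a2. Every Hbb-bs level was above all but the highest Hbb-bt level, and every Hbb-bt level was above every Alas2 level.

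Libraries held 15944081 to 17351540 whole reads, recovered from the FPKM values, and the 4 hemoglobin genes took 0.0198 to 0.0809% of them. A library with 0 reads of a gene allows up to 3, and intervals on read numbers cover counting error only. BPA replicate 4 stood apart from the rest on the first principal component, with a score of 57.5 against -24.6 to 4.08, and had the fewest genes above 0 (17174, against 19090 to 20845). Mitochondrial genes took 7.02, 8.33, 7.11 and 7.19% of reads in vehicle replicates 1 to 4 and 9.85, 9.81, 9.66 and 14.2% in BPA replicates 1 to 4, so this share was higher in every BPA library than in any vehicle library, and its part in the differences below was not tested. Vehicle replicate 4 held skeletal muscle transcripts: the muscle list summed to 287 FPKM there and to at most 1.43 FPKM in the other libraries. Both libraries matter below, since vehicle replicate 4 had the lowest summed hemoglobin of all 8 and BPA replicate 4 the highest Hba-a1 and Alas2.

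No member differed between BPA and vehicle by limma's test over 13376 genes (Benjamini-Hochberg adjusted p under 0.05). Of the 5 members, 0 passed, against 0.00748% of all tested genes, and limma-voom on the recovered reads also called 0 members. At an unadjusted p under 0.05 stood 1 member, Alas2, beside 11.0% of all tested genes. In 0 members did the groups fail to overlap, against 7.89% of tested genes. The members' median difference, BPA minus vehicle on the log2(FPKM + 1) scale, was 0.50, where that of all tested genes was -0.01, and 4 of the 5 were higher in BPA on average. All 5 passed the filter of a mean of at least 0.5 FPKM.

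Hba-a1, the alpha globin copy with nearly all of the reads, was at 386, 249, 280 and 168 FPKM in vehicle replicates 1 to 4. In BPA replicates 1 to 4 it was at 355, 556, 264 and 715 FPKM. BPA replicates 2 and 4 lay above every vehicle library, BPA replicates 1 and 3 lay inside the vehicle range, and the groups overlapped. The means were 271 ± 90.1 and 473 ± 203 FPKM (SD, n = 4 each), a 1.75-fold ratio. The log2 difference was 0.76 (SE 0.349, 95% interval -0.03 to 1.55), with a limma adjusted p of 0.463.

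Hba-a2, its near-identical copy, had very few reads. Vehicle replicates 1 to 4 held 10, 8, 8 and 2 of them, and BPA replicates 1 to 4 held 3, 25, 0 and 4. The corresponding levels were 0.819, 0.671, 0.775 and 0.173 FPKM with vehicle, and 0.259, 2.22, 0 and 0.363 FPKM in BPA. BPA replicate 2 stood above all other libraries, while the remaining BPA libraries lay at or below the middle of the vehicle range; the 0 of BPA replicate 3 allows up to 0.276 FPKM. The group difference was -0.05 on the log2 scale (limma adjusted p = 0.960), and the mean difference in FPKM had the opposite sign (0.609 in vehicle and 0.710 in BPA). Hba-a2 made up at most 0.397% of alpha globin FPKM in any library.

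Hbb-bs, the main beta globin gene of the table, was at 204, 196, 136 and 64.1 FPKM in vehicle replicates 1 to 4. The BPA libraries held 202, 355, 98.2 and 198 FPKM in the same order. Only BPA replicate 2 exceeded the vehicle range, and BPA replicate 3 was below 3 of the 4 vehicle libraries. The means were 150 ± 64.8 and 213 ± 106 FPKM (SD, n = 4 each), and the log2 difference of 0.50 (SE 0.455, 95% interval -0.53 to 1.53) had a limma adjusted p of 0.666.

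Hbb-bt, the second adult beta gene, was at 36.2, 39.3, 22.1 and 14.3 FPKM with vehicle and at 31.7, 70.0, 13.6 and 39.9 FPKM in BPA, replicates 1 to 4. As for Hbb-bs, BPA replicate 2 was the highest of all libraries; the lowest here was BPA replicate 3. The log2 difference was 0.35 (SE 0.481, 95% interval -0.75 to 1.44) with a limma adjusted p of 0.784.

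Alas2 had the largest difference of the members. Its levels were 2.70, 2.93, 1.59 and 1.08 FPKM in vehicle replicates 1 to 4, from 119, 126, 59 and 45 reads. In BPA replicates 1 to 4 they were 2.93, 7.54, 2.25 and 12.9 FPKM, from 122, 306, 88 and 514 reads. BPA replicates 2 and 4 stood well above every vehicle library, and BPA replicates 1 and 3 lay within the vehicle range. For counting error alone, the exact Poisson 95% interval was 70.6 to 108 reads in BPA replicate 3 and 470.5 to 560.4 in BPA replicate 4. The means were 2.08 ± 0.888 and 6.41 ± 4.95 FPKM (SD, n = 4 each), a 3.09-fold ratio, and the log2 difference was 1.07 (SE 0.451, 95% interval 0.04 to 2.09). All 4 BPA libraries were above the vehicle mean, and the limma adjusted p was 0.440 (unadjusted 0.0426).

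**Figure D1:**
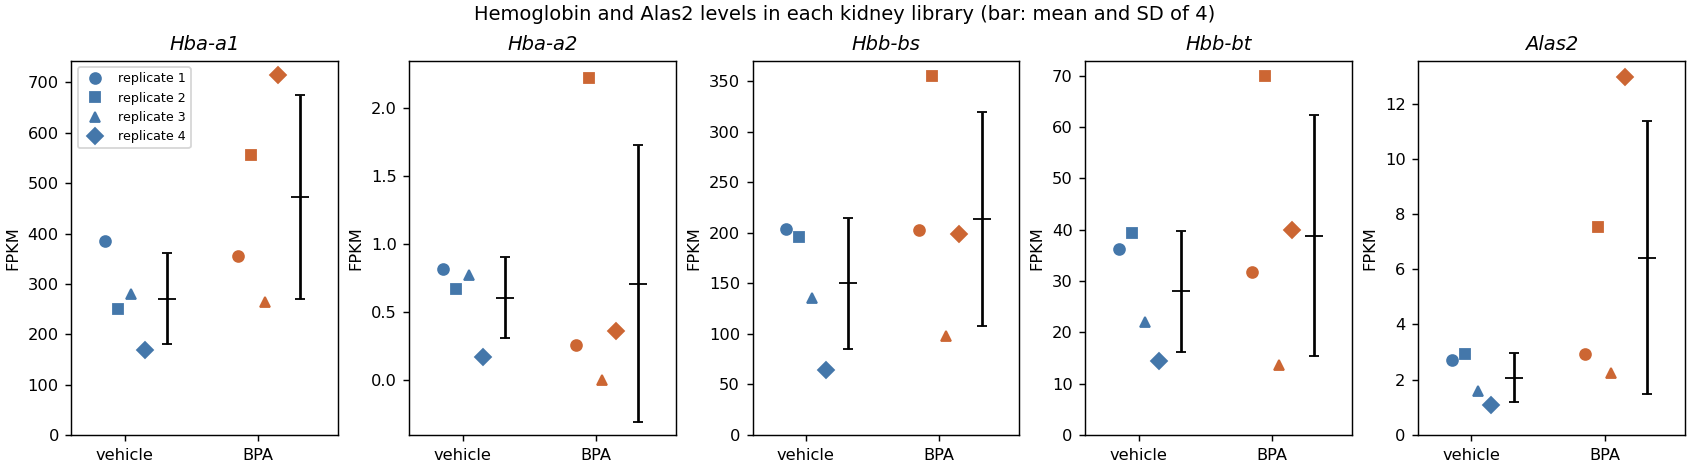
FPKM of each gene in the 8 kidney libraries, with a marker shape for each replicate number and a bar for the mean and SD of 4 libraries. In every panel the BPA libraries overlap the vehicle libraries; BPA replicate 2 is the highest for Hba-a2, Hbb-bs and Hbb-bt, and BPA replicate 4 for Hba-a1 (715 FPKM) and Alas2 (12.9 FPKM).

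The difference was also taken within replicates 1 and 2 and within replicates 3 and 4, since in both groups the first pair had more endothelial transcripts than the second. The log2 difference within replicates 1 and 2 was 0.52 for Hba-a1, 0.42 for Hbb-bs, 0.32 for Hbb-bt and 0.60 for Alas2. Within replicates 3 and 4 it was 1.002, 0.58, 0.38 and 1.54 for the same genes. These 4 differences were above 0 in both pairs, while Hba-a2 was at 0.21 in the first and -0.31 in the second. Both pairs are parts of the overall difference, so the split is a description only. BPA replicate 1 was below vehicle replicate 1 for Hba-a1 (355 and 386 FPKM), Hbb-bs (202 and 204 FPKM) and Hbb-bt (31.7 and 36.2 FPKM). For Alas2 it was above (2.93 and 2.70 FPKM). With a term for these pairs in the limma fit, 0 members passed, and the smallest adjusted p was that of Alas2, 0.381.

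**Figure D2:**
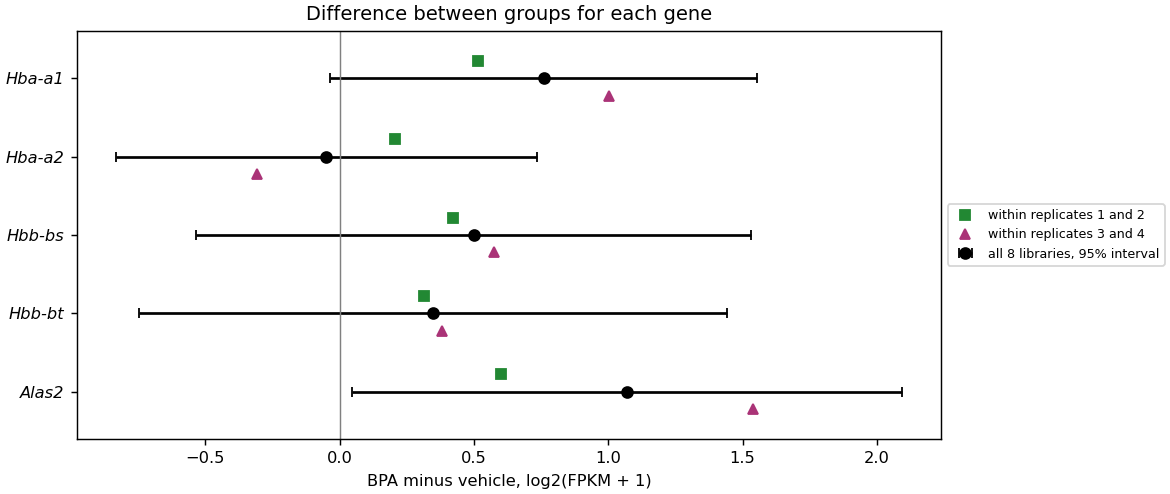
Difference between BPA and vehicle for each gene on the log2(FPKM + 1) scale, with limma's 95% interval over all 8 libraries (black) and the differences within replicates 1 and 2 (squares) and within replicates 3 and 4 (triangles). The interval of Alas2 runs from 0.04 to 2.09 before adjustment, and those of the 4 globin genes include 0.

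Leaving out both replicates 4 made the differences of Hba-a1, Hbb-bs, Hbb-bt and Alas2 smaller. The log2 difference was then 0.32 for Hba-a1, 0.13 for Hbb-bs, -0.01 for Hbb-bt and 0.51 for Alas2, and none passed (limma adjusted p = 0.782, 0.940, 0.998 and 0.745). With vehicle replicate 4 alone left out, Hbb-bs went to 0.14 and Hbb-bt to 0.08. With BPA replicate 4 alone left out, Hba-a1 went to 0.53 and Alas2 to 0.68. Without BPA replicate 2, Hbb-bt was at -0.00 and Hbb-bs at 0.21. Without BPA replicate 3 these 4 genes had larger differences, at 1.003 for Hba-a1 and 1.38 for Alas2, and limma still called none of them.

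**Figure D3:**
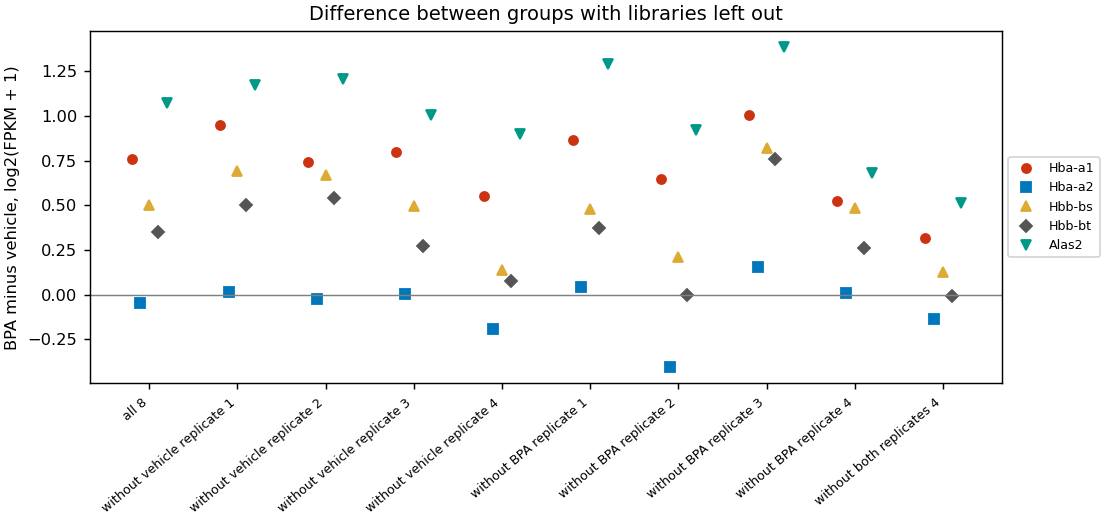
Difference between BPA and vehicle for each gene, log2(FPKM + 1), with all 8 libraries and with the named libraries left out. Hba-a1 and Alas2 stay above 0 throughout, between 0.32 and 1.003 and between 0.51 and 1.38, while Hbb-bt reaches 0 without BPA replicate 2 and without both replicates 4.

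The 4 hemoglobin genes were also summed, which depends less on how reads were split between the copies, although the copies differ in length and reads matching several genes may have been left out. The sum was 627, 485, 438 and 246 FPKM in vehicle replicates 1 to 4 and 589, 984, 376 and 954 FPKM in BPA replicates 1 to 4. The means were 449 ± 157 and 726 ± 294 FPKM (SD, n = 4 each). BPA replicates 2 and 4 were above all vehicle libraries, and BPA replicates 1 and 3 were within them. On the log2 scale the group means differed by 0.67, against SDs of 0.57 in vehicle and 0.66 in BPA. Leaving out vehicle replicate 4 took that difference to 0.40, leaving out BPA replicate 4 to 0.50, and leaving out both to 0.24.

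The balance between the chains also varied between libraries. Alpha FPKM (Hba-a1 and Hba-a2) over beta FPKM (Hbb-bs and Hbb-bt) was 1.61, 1.06, 1.78 and 2.14 in vehicle replicates 1 to 4. In BPA it was 1.52, 1.31, 2.36 and 3.003 in the same order. In both groups the ratio was higher in replicates 3 and 4 than in replicates 1 and 2, and the ranges of the groups overlapped. Hbb-bt made up 13.997 to 18.3% of beta FPKM in vehicle and 12.2 to 16.8% in BPA, so the beta pair kept much the same split in every library. Alas2 was at 0.362 to 0.604% of the summed hemoglobin level in vehicle and at 0.497, 0.767, 0.598 and 1.36% in BPA replicates 1 to 4, which makes BPA replicate 4 the library with the most Alas2 per hemoglobin transcript as well as the most alpha per beta.

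**Figure D4:**
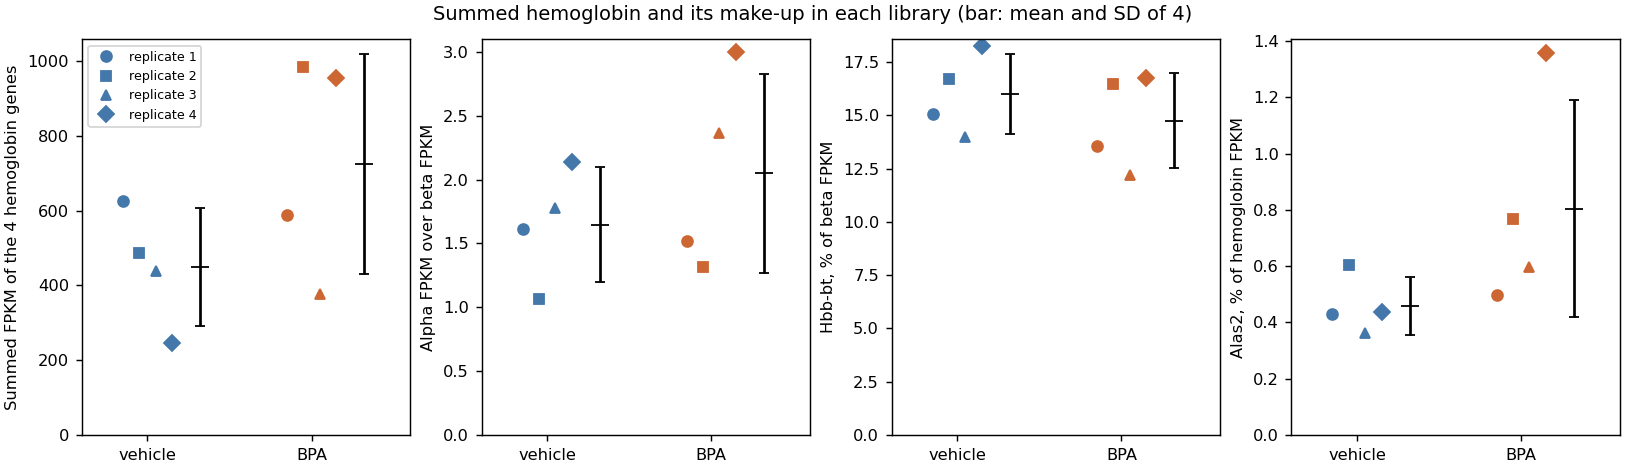
Summed FPKM of Hba-a1, Hba-a2, Hbb-bs and Hbb-bt, alpha over beta FPKM, Hbb-bt as a percentage of beta FPKM, and Alas2 as a percentage of hemoglobin FPKM in each library, with the mean and SD of 4. BPA replicate 4 has the highest alpha over beta ratio (3.003) and the highest Alas2 percentage (1.36%), while the Hbb-bt percentage stays between 12.2 and 18.3% in all libraries.

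Most other globin genes had few or no reads, with Cygb the exception. The embryonic globins Hbb-y, Hbb-bh1 and Hba-x had 0 reads in all 8 libraries, as did Hbb-bh2, Hbb-bh0 and Hbq1b, and Hbq1a had 2 reads in all. Of the 12 further globins listed, 10 were in the table and 1 was tested, Cygb, the cytoglobin of fibroblast-like cells, whose mean was 3.18 ± 0.937 FPKM in the vehicle group and 2.05 ± 0.562 FPKM in the BPA group (SD, n = 4 each, limma adjusted p = 0.450). Ngb, a globin of neurons, had 34 reads in vehicle and 3 in BPA. Mb, the myoglobin of muscle, had 10 and 8 reads.

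Markers of nucleated red cell precursors were almost absent. Hemgn, Trim58, Icam4 and Tspo2, all expressed by late erythroid precursors, had 0 reads in every library. Gata1, the master regulator of the lineage, had 1 read. Of 31 genes of the red cell membrane and maturation list in the table, 13 were tested and limma called 0 (median log2 difference 0.07). At an unadjusted p under 0.05 stood 3 of the 13, all with the higher mean after BPA, beside 11.0% of all tested genes. The abundant members of that list are genes that kidney cells express as well: Slc4a1, an anion exchanger of red cells and of acid-secreting intercalated cells, was at 3.39 ± 0.711 and 4.70 ± 1.17 FPKM, and Car2, carbonic anhydrase 2, at 90.9 ± 17.9 and 119 ± 7.74 FPKM (adjusted p = 0.473 and 0.415).

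Regulators of the erythroid lineage were likewise not called. Of 11 listed genes 6 were tested, and limma called 0. All 6 were lower after BPA on the log2 scale (median log2 difference -0.20). Of these, 1 reached an unadjusted p under 0.05, beside 11.0% of all tested genes. Klf1, the erythroid KLF factor, was at 1.79 ± 1.26 and 0.614 ± 0.738 FPKM (adjusted p = 0.461), and its highest level, 3.61 FPKM, was in vehicle replicate 4, the library with the least hemoglobin. Ldb1, an adaptor of the GATA1 complex with broad expression, was at 10.02 ± 2.12 and 7.81 ± 0.393 FPKM (adjusted p = 0.453). Tfrc, the transferrin receptor that brings iron into erythroid and other cells, was at 25.8 ± 3.83 and 25.7 ± 6.78 FPKM (adjusted p = 0.960).

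Outside the erythroid lineage heme synthesis starts with Alas1, the housekeeping counterpart of Alas2. Of the 18 further genes listed for heme synthesis, all tested, 12 had a lower and 6 a higher mean after BPA, and the median log2 difference was -0.19. Limma called 0. An unadjusted p under 0.05 was reached by 5 of the lower and 1 of the higher genes, beside 11.0% of all tested genes. Alas1 was at 23.7, 35.2, 37.9 and 31.6 FPKM with vehicle and at 17.0, 12.8, 29.6 and 23.7 FPKM in BPA, replicates 1 to 4 (log2 difference -0.65, adjusted p = 0.427), and the groups overlapped. Fech, which inserts iron in the last step, was at 56.6 ± 6.35 and 68.8 ± 13.1 FPKM (adjusted p = 0.534). Slc25a38, the mitochondrial carrier thought to bring in glycine for the first step, was at 11.02 ± 1.14 and 7.88 ± 1.49 FPKM (adjusted p = 0.374). Alas1 was above Alas2 in every library. It was lowest in BPA replicate 2, where Alas2 was at 7.54 FPKM. Alas2 itself was highest in BPA replicate 4, at 12.9 FPKM, where Alas1 was at 23.7 FPKM, much as in vehicle replicate 1.

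Erythropoietin, the kidney's own signal to the erythroid lineage, was at the limit of detection. Epo had 6, 2, 0 and 0 reads in vehicle replicates 1 to 4 and 0, 0, 0 and 5 in BPA replicates 1 to 4, too few to compare. Of the 8 genes listed for erythropoietin and oxygen sensing 7 were tested, and limma called 0. Beside 11.0% of all tested genes, 2 of the 7, 1 in each direction, reached an unadjusted p under 0.05. Epas1, which encodes the hypoxia-inducible factor that drives Epo, was at 18.2 ± 2.998 and 23.8 ± 3.94 FPKM (adjusted p = 0.440). Egln2, an oxygen-sensing prolyl hydroxylase, was at 25.1 ± 3.97 and 20.2 ± 1.43 FPKM (adjusted p = 0.452).

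Genes that take up hemoglobin or heme, break heme down and store its iron were compared last among the pathway lists. Of 22 listed, 19 were tested, with 13 higher and 6 lower (median log2 difference 0.03), and limma called 0. Among the higher genes 2 reached an unadjusted p under 0.05, beside 11.0% of all tested genes. Hmox1, the inducible enzyme that opens the heme ring, was at 32.1, 62.4, 22.4 and 11.4 FPKM with vehicle and at 16.8, 15.8, 15.7 and 11.3 FPKM in BPA, replicates 1 to 4 (log2 difference -0.83, adjusted p = 0.490). Vehicle replicate 2 was the highest, and in neither group was Hmox1 highest in the library with the most hemoglobin. Fth1, the ferritin heavy chain, was at 5208 ± 486 and 4345 ± 1158 FPKM (adjusted p = 0.596), and Hfe, a regulator of iron uptake, at 1.23 ± 0.322 and 1.99 ± 0.353 FPKM (adjusted p = 0.374). The plasma scavengers Hp and Hpx, which bind free hemoglobin and heme and are made chiefly in liver, were low: Hp ranged over 0.476 to 8.71 FPKM in vehicle libraries and 0.0369 to 1.51 FPKM in BPA libraries (adjusted p = 0.463), and Hpx had 17 and 6 reads. Cd163, the macrophage receptor for the complex of haptoglobin and hemoglobin, had 34 and 43 reads.

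Markers of other blood cells did not rank the libraries as hemoglobin did. The neutrophil list summed to 1.26 to 12.4 FPKM with vehicle and 0.845 to 5.05 FPKM in BPA, with 3 of 13 members tested and Elane and Mpo at 0. The platelet list summed to 6.06 to 8.60 and 8.12 to 9.59 FPKM, with 4 of 13 tested and Gp1bb at 0. The lymphocyte list summed to 73.5 FPKM in vehicle replicate 4 and to 8.60 to 18.4 FPKM elsewhere, with 7 of 15 tested. The monocyte and macrophage list summed to 124 FPKM in that library and to 29.4 to 61.5 FPKM elsewhere, with 11 of 12 tested. Limma called 0 members of these lists. The only 1 of them at an unadjusted p under 0.05 was the neutrophil gene S100a9, lower after BPA, beside 11.0% of all tested genes.

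Endothelial markers, which line the vessels that hold the blood, shared part of the hemoglobin pattern. The list of 14 genes summed to 120, 133, 47.3 and 44.6 FPKM in vehicle replicates 1 to 4 and to 122, 148, 74.1 and 75.6 FPKM in BPA replicates 1 to 4. Replicates 1 and 2 were thus higher than replicates 3 and 4 in both groups, and the groups overlapped. All 13 tested members were higher in BPA (median log2 difference 0.36), and limma called 0. Only 1, Ehd3, stood at an unadjusted p under 0.05, beside 11.0% of all tested genes. Summed hemoglobin per unit of summed endothelial FPKM was 5.22, 3.64, 9.26 and 5.52 in vehicle and 4.83, 6.64, 5.08 and 12.6 in BPA, so BPA replicate 4 and vehicle replicate 3 held more hemoglobin for their endothelial level than the rest. The part of the endothelial level in the hemoglobin difference was not tested.

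Vehicle replicate 4 had the least hemoglobin and the most transcripts of other tissues. Its adipocyte list summed to 296 FPKM, against 3.39 to 92.9 FPKM in the other vehicle libraries and 2.38 to 21.3 FPKM in BPA. The 10 skeletal muscle genes summed to 287 FPKM, and Acta1, the skeletal muscle actin, had 2748 reads there and 0 in every other library. In the kidney list of 11 tubule and glomerulus genes, limma called 0. Here 0 genes had an unadjusted p under 0.05, beside 11.0% of all tested genes. Slc34a1, the phosphate carrier of the proximal tubule, was at 838 to 1191 FPKM in all libraries. The part of these other tissues in the low hemoglobin of that library was not tested.

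**Figure D5:**
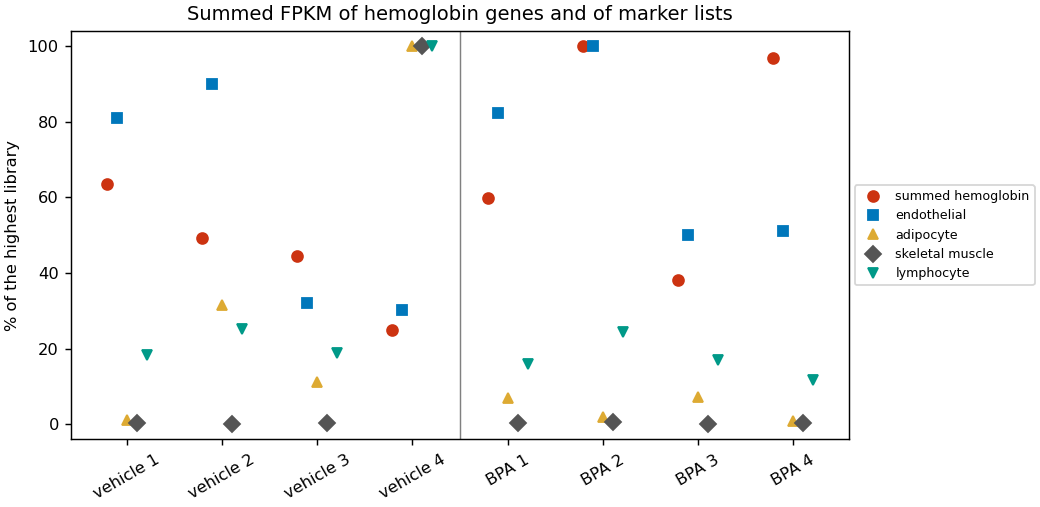
Summed FPKM of the 4 hemoglobin genes and of the endothelial, adipocyte, skeletal muscle and lymphocyte lists in each library, as a percentage of the highest library for each. Vehicle replicate 4 is highest for the 3 non-kidney lists and lowest for hemoglobin, and BPA replicate 2 is highest for hemoglobin and for endothelial genes.

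The genes whose levels across the 8 libraries were most like the members' own mean on the log2 scale were found among the 13371 other tested genes and are given as a description. The closest was Sh3bgrl2 (Pearson r = 0.967, Spearman rho = 0.929), followed by Cd24a, a surface glycoprotein of epithelial and blood cells (r = 0.966, rho = 0.929), Yae1d1 (r = 0.963, rho = 0.905) and the growth factor receptor gene Fgfr2 (r = 0.957, rho = 0.976). Kctd12, Rbms3, Slc27a3 and the endothelial genes Erg and Arhgef15 were also among the closest 10, with r of 0.939 to 0.953. Cd24a was at 26.7, 26.3, 22.8 and 16.9 FPKM with vehicle and at 29.6, 36.0, 21.6 and 33.5 FPKM in BPA, replicates 1 to 4. The libraries differ in tissue make-up, and its part in these correlations was not tested. Only 1 to 7 of these 10 genes were again among the closest 10 when a library was left out. By list, the median r was 0.69 for 13 endothelial genes, beside -0.06 for all tested genes without the members. It was 0.02 for 13 red cell membrane and maturation genes and -0.38 for 18 heme synthesis genes. For 7 adipocyte, 8 skeletal muscle and 7 lymphocyte genes it was -0.78, -0.60 and -0.52. Each of these last lists had its highest sum in vehicle replicate 4. The remaining lists ran from -0.15 to 0.25.

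Among the members, the pairs did not follow each other equally closely across the 8 libraries. By Pearson's r, Hbb-bs and Hbb-bt were closest (r = 0.96, rho = 0.79), with Hba-a1 and Alas2 next (r = 0.93, rho = 0.71). By Spearman's rho, Hbb-bt and Alas2 were closest (r = 0.73, rho = 0.88). Hba-a1 with Hbb-bs had r = 0.78 and rho = 0.79. Hba-a2 followed Hbb-bt (r = 0.81, rho = 0.71) more closely than its own near-identical copy Hba-a1 (r = 0.45, rho = 0.52), on at most 25 reads a library.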

How the data were processed

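The deposited table gives FPKM per gene, made by the authors from their reads, with gene lengths and coordinates. The submitters' processing notes name the build GRCm38 and the tool DESeq2 1.20.0 but not what each was for. The aligner and the counting tool were not given in the sources used here. BPA columns carry their group and replicate number. Columns with C and a number were read as vehicle replicates because the labels hold no further group. Multiplied by gene length, 100% of the low values (up to 20 reads) were whole multiples of 1 unit per library, within 0.01, which gave back 15944081 to 17351540 reads per library.

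The comparison used limma 3.58.1 (R 4.3.3) on log2(FPKM + 1), moderated with a trend and robustly, with group as the only term, on 13376 genes whose mean was 0.5 FPKM or more. This scale understates changes of low genes. Members and gene lists were chosen with earlier results of these data known. In the lists, the 3 genes with the highest mean, the up to 2 with the smallest p and a fixed set could be named, with the 10 genes closest to the members; some of these are not reported here. Markers given with 0 to 2 reads were chosen after their values were seen. The fit was tested on simulated data, where it found most changed genes but made more false calls than its threshold allows. Promoters are from RefSeq (all 5 members matched by symbol) and transcripts from GENCODE M21. Python 3.11.15 and biopython 1.88 were used elsewhere. Alternatives were other pseudocounts, filters, scalings, variance models, library weights, limma-voom on recovered reads, a replicate block, a term for replicates 1 and 2 against 3 and 4, and libraries left out.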

Additional observations from a re-analysis of the deposited data

Results flagged for a closer look

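A library was marked where it lay far from the other 3 of its group, by Dixon's test with a critical value of 0.829; chance marks about 1 in 20 groups, and 9 marks were made in 112 groups. Among the members, Hba-a2 was at 2.22 FPKM in BPA replicate 2, against 0 to 0.363 FPKM in the other BPA libraries. Vehicle replicate 4 was marked for Mb (0.386 FPKM against 0), for the erythroid transcription factor and receptor list (32.3 against 24.7 to 25.3 FPKM), for the lymphocyte list (73.5 against 13.4 to 18.4 FPKM) and for the skeletal muscle list (287 against 0.448 to 1.10 FPKM). BPA replicate 4 was marked for low Prdx2, a peroxiredoxin of red and other cells (38.8 against 52.3 to 53.7 FPKM), and for Epo (0.354 FPKM against 0). Tfrc was at 35.8 FPKM in BPA replicate 3, against 21.3 to 23.1 FPKM, and Slc25a38 at 9.33 FPKM in vehicle replicate 2, against 11.4 to 11.8 FPKM. The summed hemoglobin level, Hba-a1, Hbb-bs, Hbb-bt and Alas2 had no such library.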

How the results depend on the processing

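No member passed limma's test under any of the 20 alternatives run (19 for Hba-a2, which a filter at a mean of 1 FPKM removed). The smallest adjusted p was 0.381 for Alas2 and 0.396 for Hba-a1, both with the term for replicates 1 and 2 against 3 and 4. Hba-a1 ran from 0.53 to 1.003, Hbb-bs from 0.14 to 0.82 and Alas2 from 0.68 to 1.38 when each library was left out. With library weights Hba-a1 was 0.48, Hbb-bt 0.21 and Alas2 0.62. Hbb-bt ran from -0.00129 (without BPA replicate 2) to 0.76 and was -0.00828 without both replicates 4. Hba-a2 ran from -0.41 to 0.16 and was positive in 5 of the 8. With a pseudocount of 0.1 Hba-a2 was at -0.53, and with 0.01 at -1.29. BPA replicate 3 held 0 reads of Hba-a2, and the part of that 0 in the shift was not tested. The count of genes called over the whole table was 1, and 8 with library weights, 0 with limma-voom, 0 with the replicate block, 2 with that term and 0 to 4 with each library left out. Of the 10 closest genes, 1 to 7 were kept. With the replicate block the adjusted p of Hba-a1 was 0.522 and that of Alas2 0.487. Same-numbered libraries of the groups did not deviate together in every pair (correlations of deviations 0.137, 0.0190, 0.138 and -0.0329). Differently numbered libraries gave values of similar size, from -0.219 to 0.194. These values cannot tell whether the numbers pair the libraries, and the labels do not say. Hba-a2 and Epo rest on at most 25 and 6 reads a library; whether reads shared with Hba-a1 bear on the former was not tested.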
